A study of Mus musculus with 16 samples.

Results

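Myom2, Ap3b2, Unc93a, Sdk2, Cdc14b, Cmtm8 and Alg3 are 7 genes, of 28095 gene names and identifiers on the array, whose signal parted the iPS clones that carried a human artificial chromosome (iHAC) from the samples that did not. The members were selected on measured values of these same arrays, by that very contrast, so their levels in carriers and in the other samples are described here and not tested. All 12 probes that bear the name of a member were taken. Of these, 9 had a signal well above background on 1 or more arrays and so passed the filter, and 3 (the second Myom2 probe, the second Ap3b2 probe and the third Sdk2 probe) were not well above background on any of the 16 arrays.

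RNA of 16 mouse cell samples was hybridised to single-colour Agilent arrays, 1 array per line or clone. The 8 carriers were 4 clones made with iHAC1 (iHAC1-iPS, named 1-D6, 1-C3, 1-B, 1-A3) and 4 made with iHAC2 (iHAC2-iPS, named 2-N, 2-E, 2-C6, 2-B1), all from C57BL/6 embryonic fibroblasts. The iHAC1 vector holds Oct4, Sox2, Klf4 and c-Myc in 2 copies each, driven by the constitutive CAG promoter, and iHAC2 holds in addition a knockdown cassette against p53 and 2 further copies of Oct4. The 8 samples without an iHAC were 4 lines grown from an iHAC2-iPS clone after the vector was lost (iHAC-free-iPS; F-N7 from 2-N, F-E4 from 2-E, F-C5 from 2-C6 and F-B1 from 2-B1), the ES lines B6ES (C57BL/6) and TT2 (C57BL/6 x CBA), the iPS line 20D17 made with retrovirus vectors (C57BL/6 x DBA), and the C57BL/6 embryonic fibroblasts themselves (MEF). ES and iPS cells were kept on mitotically inactive MEF feeders, so their RNA may hold feeder RNA, and a lower signal in such a sample cannot be told apart as fewer cells of a type or less RNA per cell. As the study describes it, all iHAC1 colonies stem from a single chromosome transfer and the iHAC2 colonies from a pair of them, and all spreads given are between clones or lines. The study also treated the fibroblasts with microRNA mimics after these transfers. The iHAC-free lines were sorted as EGFP-negative cells and cloned again, so a line differs from its parent clone in these steps too.

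Background on the genes is as follows. Myom2 encodes myomesin 2, a protein of the M-band that cross-links myosin filaments in striated muscle. Ap3b2 encodes the neuronal large beta subunit of the AP-3 adaptor, which sorts membrane proteins into vesicles. Unc93a is a poorly characterised membrane protein related to Unc93b1, the chaperone of endosomal Toll-like receptors. Sdk2 encodes sidekick 2, a homophilic adhesion protein of the immunoglobulin superfamily known from retinal synapses. Cdc14b encodes a dual-specificity phosphatase that acts on substrates of cyclin-dependent kinases. Cmtm8 belongs to the CKLF-like MARVEL transmembrane family and is known to bear on the surface level of the EGF receptor. Alg3 encodes a mannosyltransferase of the endoplasmic reticulum that helps build the lipid-linked precursor of N-glycans.

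The oligonucleotides that report the members are shown because each value below is the signal of 1 such 60-base probe and not of a whole gene. Probes of coding sequence are given in full, and of the others only the first 30 bases are given.
Myom2 A_51_P431785: cacatttctggaaaccctttgtggagcctt
Ap3b2 A_51_P486681: cttctacctgtttcctatgggttccttagt
Unc93a A_52_P326664: gttttgggcctcttaaaagttcccggggga
Sdk2 A_52_P570543: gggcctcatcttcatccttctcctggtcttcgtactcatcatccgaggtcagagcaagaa
Cdc14b A_51_P416660: agtctttctctgtaacgctgtggagttttt
Cdc14b A_52_P106294: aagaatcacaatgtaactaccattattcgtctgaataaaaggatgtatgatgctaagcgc
Cmtm8 A_51_P308048: ccagtgtcttgttacaattgagctggatat
Alg3 A_51_P155501: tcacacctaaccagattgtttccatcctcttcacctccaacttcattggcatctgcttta
In the mm9 build named in the file headers these probes lie at chr8:15133322-15133381 (Myom2, plus strand), chr7:88605358-88605417 (Ap3b2), chr17:13301486-13301545 (Unc93a), chr11:113655060-113655119 (Sdk2), chr13:64296834-64296893 and chr13:64316938-64316997 (Cdc14b), chr9:114698535-114698594 (Cmtm8) and chr16:20606032-20606610 (Alg3), all but the first on the minus strand. The 60 bases of the Alg3 probe span 579 bases of the chromosome, so the probe crosses at least 1 intron. The 2 Cdc14b probes start 20.1 kb apart. No annotation of the mm9 build was used here, so exon and intron numbers are not given.

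Levels are log2 of the processed signal minus the 75th percentile of the array, so that 0 is the signal of a probe at that percentile. The share of probes well above background was 54.2% to 65.8% per array, and no spot was saturated. Carrier status was balanced over the 2 scan sessions, and each of the 4 slides held both carriers and samples without an iHAC. All iHAC1-iPS clones and both ES lines were scanned in the first session, and all iHAC2-iPS clones and their iHAC-free lines in the second. In the second session the iHAC2-iPS arrays were dimmer, with a log2 75th percentile of 8.72 to 9.39, against 9.43 to 9.60 for iHAC-free-iPS. Their share of probes well above background was 54.2% to 59.9%, against 59.4% to 63.0%. The part of this in the differences was not tested. Probes of the vector's factors need not lie in the cDNA that the vectors carry, so a reading may hold the mouse gene's own transcript alone. By quantitative RT-PCR the paper found the transgenes more strongly expressed than the endogenous genes in both kinds of carrier. On the arrays, 2 of 3 Myc probes were higher in every carrier than in every other sample, by 4.43 and 4.83 on the log2 scale. The third Myc probe, which lies downstream of them (from chr15:61821516, against 61821417 and 61820925), was 1.86 lower with overlapping groups. Klf4 was lower in every carrier than in every other sample, by a difference of -2.74 (carriers 2.09 to 4.66, others 4.86 to 5.97), Sox2 had -1.49 and Pou5f1 (Oct4) 3.98, both with overlapping groups. The 2 Trp53 probes (the p53 gene) had -0.51 and 0.19 and Hprt had 0.11, with overlapping groups. Pluripotency markers (8 of 10 listed passed the filter) had a mean level of -2.14 to 0.36 in the 4 iHAC1-iPS clones. It was 2.66 to 4.02 in the 4 iHAC2-iPS clones and 3.75 to 3.83 in the iHAC-free-iPS lines. The ES lines had 3.91 and 4.17, 20D17 had 3.32 and MEF -5.07, so the iHAC1-iPS clones stood below every other pluripotent line. These markers include Pou5f1 and Sox2, which both vectors carry, so vector transcript may enter the carrier levels. Pou5f1 had a mean of 6.55 in iHAC1-iPS and 4.93 in iHAC2-iPS, against 3.78 in ES.

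Of the 12 member probes, 8 had no overlap between the 8 carriers and the 8 other samples, 2 lower and 6 higher in carriers, and these 8 hold at least 1 probe of every member. Over all 31395 probes with a value on every array, 298 (0.949%) had no overlap, 211 (0.672%) with carriers higher and 87 (0.277%) with carriers lower. As the members were selected on this split, nothing is read from their count. Leaving out an array cannot make the 8 overlap, and without the MEF array 627 of all probes (2.00%) had no overlap.

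**Figure D1:**
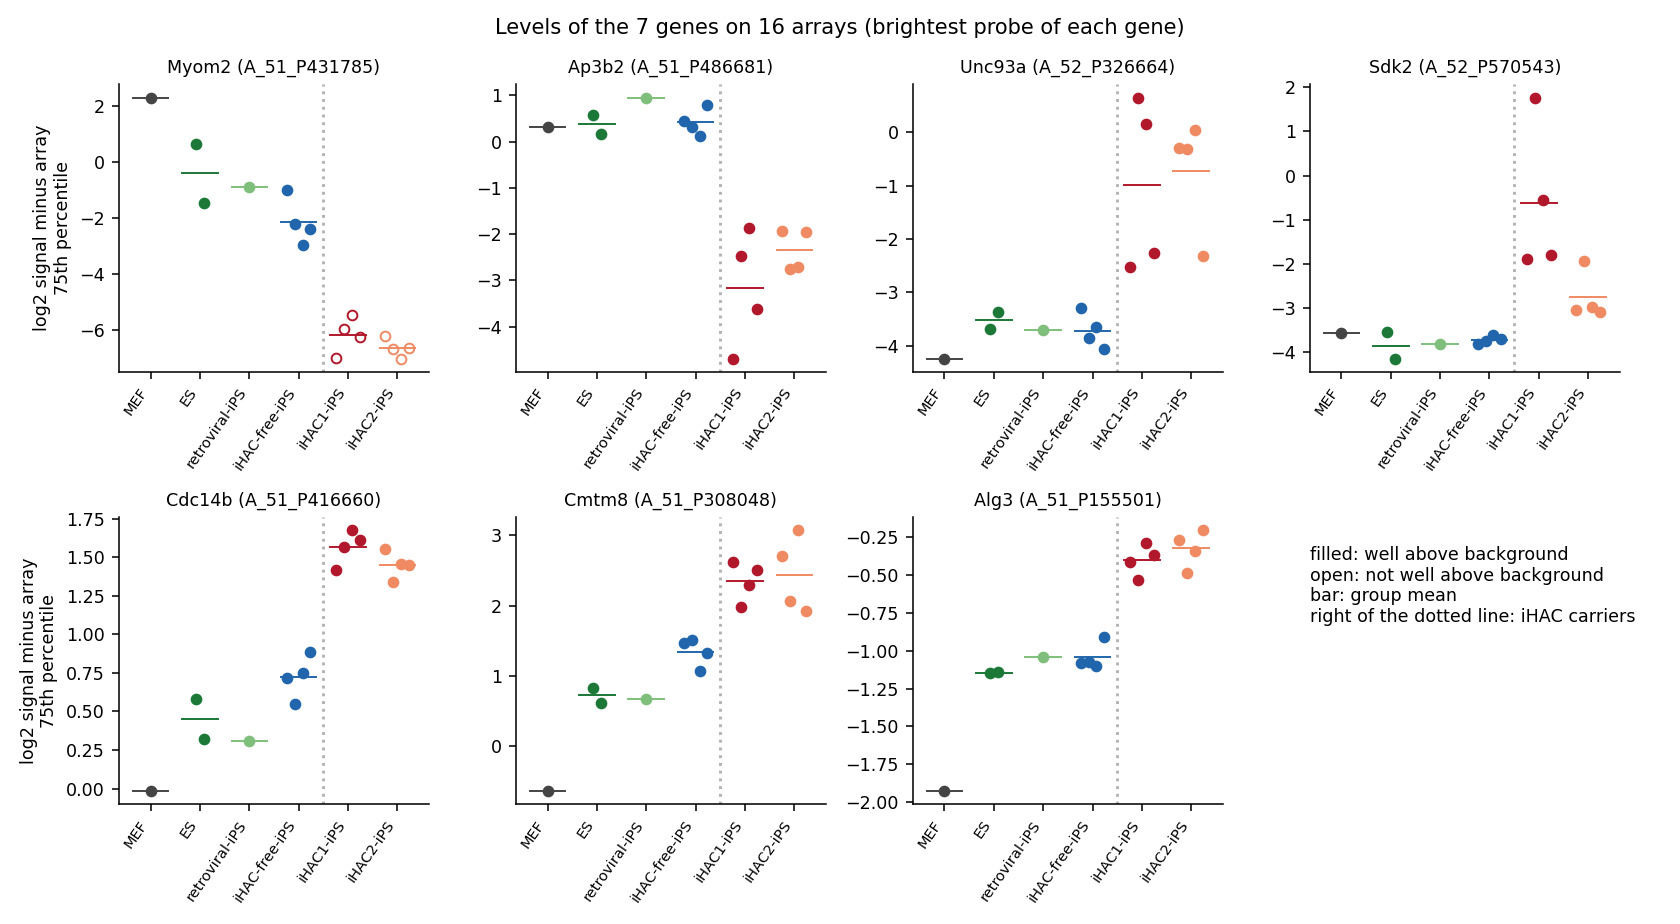
Level of the brightest probe of each of the 7 genes on the 16 arrays (y axis, log2 signal minus the array's 75th percentile) by group (x axis), with group means as bars, filled points well above background and open points not. Myom2 and Ap3b2 lie lower in the 8 carriers to the right of the dotted line, with Myom2 not well above background in any carrier, and the other 5 genes lie higher.

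Myom2 had the largest measured difference of the members, -5.41 on the log2 scale, though not with normexp background correction, where it had -2.31 and Ap3b2 -2.36. Its level was 2.29 in MEF, 0.63 in B6ES, -1.47 in TT2 and -0.90 in 20D17. The iHAC-free-iPS lines read -2.42 (F-N7), -2.99 (F-E4), -2.21 (F-C5) and -1.01 (F-B1). In the carriers the probe read -7.01, -5.98, -5.49 and -6.27 in 1-A3, 1-B, 1-C3 and 1-D6 and -6.22, -6.71, -7.03 and -6.67 in 2-B1, 2-C6, 2-E and 2-N. All 8 samples without an iHAC were well above background and none of the 8 carriers was, so the carrier readings set only a limit. With each carrier at the higher of its own signal and its lowest detected signal, Myom2 was at least 17.4-fold higher in the samples without an iHAC (measured means -1.01 and -6.42) and at least 7.85-fold higher in the iHAC-free-iPS lines alone. Each of the 4 iHAC-free-iPS lines lay above the clone it came from, by measured differences of 4.04 to 5.20. Among the samples without an iHAC the order of mean levels was MEF, ES, 20D17 and iHAC-free-iPS, in which 20D17 lay between the 2 ES lines. Striated muscle markers (6 of 6 passed the filter) had a mean level of -3.55 to -3.16 in carriers, -3.51 to -2.45 in the samples without an iHAC other than MEF, and 2.55 in MEF. Fibroblast markers (10 of 10) had a mean level of 1.53 to 3.88 in carriers and 0.82 to 3.06 in the samples without an iHAC other than MEF, overlapping ranges. Their part in the Myom2 values was not tested.

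Ap3b2 was lower in carriers by 3.21 on the log2 scale (means -2.75 ± 0.98 and 0.46 ± 0.30, SD, n = 8 each), a 9.26-fold difference. The samples without an iHAC held a narrow band: 0.31 in MEF, 0.58 in B6ES, 0.18 in TT2, 0.96 in 20D17, and 0.80, 0.11, 0.31 and 0.45 in F-N7, F-E4, F-C5 and F-B1. The carriers were wider, with -4.69, -2.46, -1.86 and -3.62 in 1-A3, 1-B, 1-C3 and 1-D6 and -1.92, -2.76, -2.70 and -1.96 in 2-B1, 2-C6, 2-E and 2-N. Every carrier thus lay at least 1.98 below every other sample, and the probe was well above background on all 16 arrays. MEF and both ES lines lay within the range of the iHAC-free-iPS lines. Unlike Myom2, Ap3b2 read alike in MEF (0.31) and in the ES lines (mean 0.38). Neuron markers (6 of 6 passed the filter) had a mean level of -2.60 to -1.16 in carriers and -2.45 to -1.74 in the samples without an iHAC other than MEF, and their part was not tested.

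Unc93a was higher in carriers by 2.87 (means -0.86 ± 1.29 and -3.73 ± 0.32, SD, n = 8 each), a 7.30-fold difference. Samples without an iHAC read -4.24 in MEF, -3.67 in B6ES, -3.36 in TT2, -3.71 in 20D17, and -4.05, -3.64, -3.86 and -3.30 in F-N7, F-E4, F-C5 and F-B1. The carriers did not form 1 band. Clones 1-B and 1-C3 read 0.65 and 0.16, and 2-B1, 2-C6 and 2-E read -0.30, -0.32 and 0.04, while 1-A3, 1-D6 and 2-N read -2.53, -2.26 and -2.32. The low readings thus occurred with both vectors, and the lowest carrier still lay 0.77 above the highest sample without an iHAC.

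Sdk2 was higher in carriers by 2.05 on its brightest probe (means -1.69 ± 1.64 and -3.74 ± 0.19, SD, n = 8 each), a 4.15-fold difference. The 8 samples without an iHAC lay between -4.14 (TT2) and -3.55 (B6ES), with F-N7, F-E4, F-C5 and F-B1 at -3.71, -3.61, -3.75 and -3.82. The iHAC1-iPS clones read 1.77 (1-B), -0.55 (1-C3), -1.80 (1-D6) and -1.90 (1-A3). With iHAC2 the clones read -3.05 (2-B1), -1.93 (2-C6), -2.97 (2-E) and -3.09 (2-N), all lower than the lowest iHAC1-iPS clone. A second Sdk2 probe, 14.6 kb away, ran the other way: it was 0.96 lower in carriers with overlapping groups, was well above background on 9 of 16 arrays, and read highest in MEF at -1.24. Without MEF that difference was -0.52, so the gene's probes disagree and the carrier difference of Sdk2 belongs to 1 probe.

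Cdc14b was higher in carriers by 1.00 (means 1.51 ± 0.11 and 0.51 ± 0.29, SD, n = 8 each), a 1.99-fold difference, with a narrow spread among carriers. The level was -0.02 in MEF, 0.58 and 0.32 in B6ES and TT2, 0.31 in 20D17, and 0.89, 0.75, 0.55 and 0.72 in F-N7, F-E4, F-C5 and F-B1. Carriers read 1.42, 1.57, 1.68 and 1.61 in 1-A3, 1-B, 1-C3 and 1-D6 and 1.55, 1.34, 1.46 and 1.45 in 2-B1, 2-C6, 2-E and 2-N. The second Cdc14b probe pointed the same way at a level near background, 0.85 higher in carriers (means -4.06 and -4.91), and was well above background on 13 of 16 arrays. It lies just inside the split: the lowest carrier exceeded the highest other sample by only 0.01, and with normexp background correction the groups overlapped. The Sdk2 probe that ran the other way lies outside it.

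Cmtm8 was higher in carriers by 1.54 (means 2.39 ± 0.40 and 0.85 ± 0.70, SD, n = 8 each), a 2.91-fold difference. MEF read -0.64, B6ES 0.82, TT2 0.62 and 20D17 0.67. The iHAC-free-iPS levels were 1.33, 1.07, 1.51 and 1.46 in F-N7, F-E4, F-C5 and F-B1, all above the ES lines and below every carrier. The iHAC1-iPS clones lay between 1.98 (1-B) and 2.62 (1-A3), and the iHAC2-iPS clones between 1.92 (2-N) and 3.07 (2-E). Cmtm8 therefore had its levels in the order MEF, 20D17, ES, iHAC-free-iPS, iHAC1-iPS and iHAC2-iPS, in which 20D17 and ES, and the 2 carrier groups, were within each other's range.

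Alg3 was higher in carriers by 0.81 (means -0.36 ± 0.11 and -1.18 ± 0.31, SD, n = 8 each), a 1.76-fold difference, the smallest of the 7. MEF stood apart at -1.93. The ES lines read -1.15 and -1.14, 20D17 read -1.05, and F-N7, F-E4, F-C5 and F-B1 read -0.91, -1.10, -1.08 and -1.08. Carriers lay between -0.54 (1-B) and -0.21 (2-N). Without MEF the difference was 0.71, and 0.38 parted the lowest carrier from the highest other sample.

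The split was next read within slides and within lines of origin, where the samples compared share a hybridisation slide or a parental clone. The direction within each slide and pair is fixed by the lack of overlap that chose the 8 probes, so only the sizes are described. Across slides the differences ran from -8.45 to -4.27 for Myom2, -4.19 to -2.57 for Ap3b2, 1.32 to 3.66 for Unc93a, 0.70 to 3.35 for Sdk2, 0.92 to 2.94 for Cmtm8 and 0.68 to 1.51 for Alg3. On slide 1 the only sample without an iHAC was MEF, and every member but Ap3b2 had its widest difference there. The Myom2 differences rest on carrier readings not above background. Within the pairs, Ap3b2 was lower in the clone by 2.37 to 3.07, and the loss of the vector went with a lower Unc93a, by 1.73 from 2-N to F-N7 and by up to 3.69, from 2-E to F-E4. Cmtm8 was 0.55 to 2.01 higher and Alg3 0.59 to 0.81 higher in the clone than in its own iHAC-free line. The 2 scan sessions gave 0.91 and 0.72 for Alg3, 1.27 and 0.72 for the brighter Cdc14b probe, and 3.15 and 0.96 for Sdk2.

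**Figure D2:**
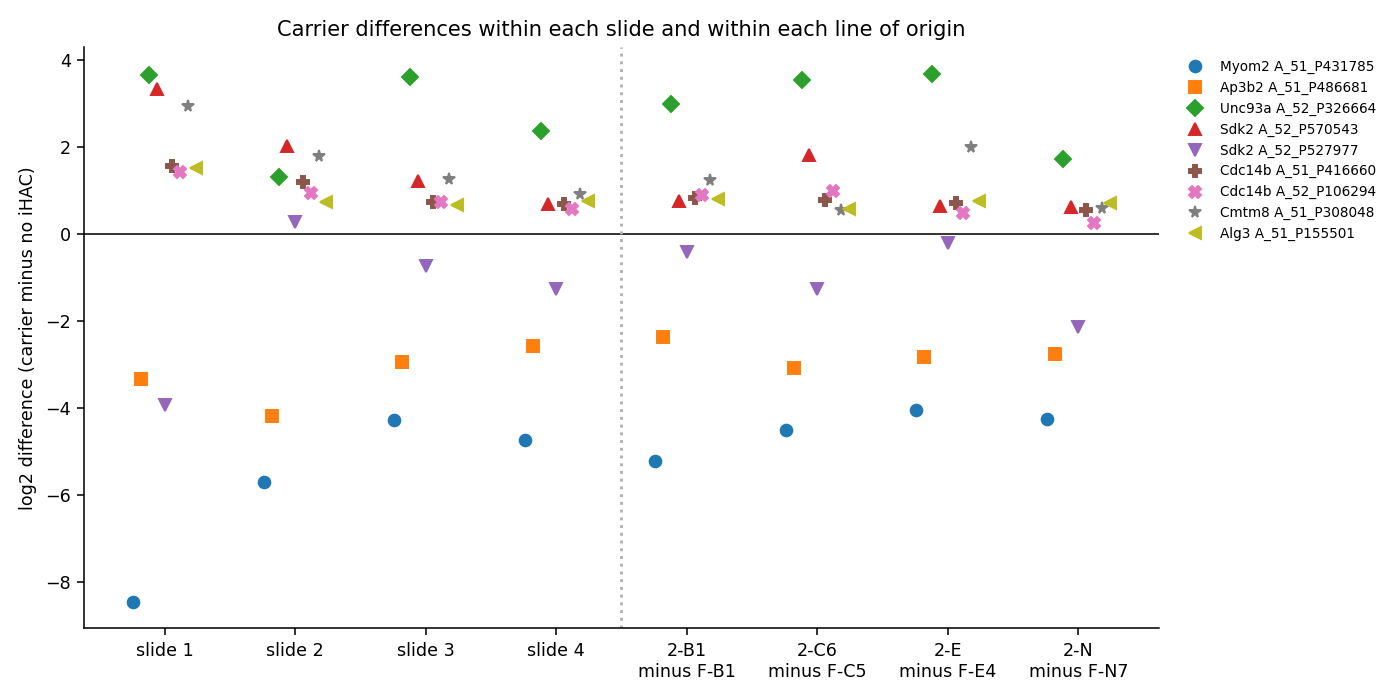
Log2 difference of carriers minus samples without an iHAC (y axis) for the 9 member probes that passed the filter, within each of 4 slides (left of the dotted line) and for each iHAC2-iPS clone minus the iHAC-free-iPS line grown from it (right). The side of 0 is fixed by the selection for all probes but the dim Sdk2 probe A_52_P527977, and slide 1, where MEF was the only sample without an iHAC, holds the widest Myom2 value of -8.45.

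Comparisons other than the carrier contrast were tested with limma, over 31423 probes and with Benjamini-Hochberg adjustment. A probe passed at an adjusted p under 0.05 and at least a 2-fold difference. Choice by lack of overlap favours a small spread within carriers and within the other samples, which these comparisons read. Counts of members below the share of all probes are therefore not free of the choice. Between the carrier groups, iHAC1-iPS against iHAC2-iPS, 1 of the 8 member probes that could be compared passed, against 20.0% of all probes tested. This was Sdk2, higher in iHAC1-iPS by 2.14 ± 0.64 (SE; means -0.62 and -2.76; n = 4 each; limma adjusted p = 0.0216), with the iHAC1-iPS clones all above the iHAC2-iPS clones. The call did not hold with only these groups in the fit (limma adjusted p = 0.0749) or without 2-N (limma adjusted p = 0.0507). The vector and the scan session cannot be told apart in this comparison, and the pluripotency marker level given above moved with it, whose part was not tested. Ap3b2 was lower in iHAC1-iPS by a value of -0.82 ± 0.49 (SE, limma adjusted p = 0.203) and did not pass, though without 1-C3 it did, at -1.26 (limma adjusted p = 0.0463). Unc93a (-0.27 ± 0.70), Cdc14b (0.12 ± 0.12), Cmtm8 (-0.09 ± 0.24) and Alg3 (-0.08 ± 0.11, SE) did not pass, with limma adjusted p of 0.783, 0.457, 0.792 and 0.610. For Myom2 no fold is given, as both groups were not well above background.

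Between iHAC-free-iPS lines and ES lines none of the 9 probes passed, against 0.366% of all probes tested, and with 2 ES lines the standard errors were wide; at an unadjusted p under 0.05, 1 of the 9 would be counted, against 20.5% of all probes. That was Myom2, with -1.74 ± 0.61 (SE; means -2.16 and -0.42; n = 4 and 2; limma adjusted p = 0.146). Cmtm8 had 0.62 ± 0.30 (SE, limma adjusted p = 0.265) and Cdc14b 0.27 ± 0.15 (SE, limma adjusted p = 0.316), and Ap3b2 had 0.04 ± 0.60 (SE, limma adjusted p = 0.978). Scan session and group coincide here too and cannot be told apart.

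Whether the carrier difference itself varied with the vector was asked by setting iHAC1-iPS minus ES against iHAC2-iPS minus iHAC-free-iPS, each pair scanned in its own session. The references are unlike: the ES lines are unrelated to the clones, and the iHAC-free-iPS lines come from the iHAC2-iPS clones. Each value is the sum of both comparisons above, so vector and reference cannot be told apart. None of the 8 probes compared passed, against 5.44% of all probes tested, and at an unadjusted p under 0.05 there was 1 of them, Sdk2, against 24.3% of all probes. Sdk2 had the largest value, 2.26 ± 1.02 (SE, limma adjusted p = 0.196), followed by 0.53 ± 0.39 for Cmtm8 and 0.39 ± 0.19 for Cdc14b (SE, limma adjusted p = 0.429 and 0.229). Alg3 had 0.03 ± 0.18 (SE, limma adjusted p = 0.945). These values do not show that the differences were equal.

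**Figure D3:**
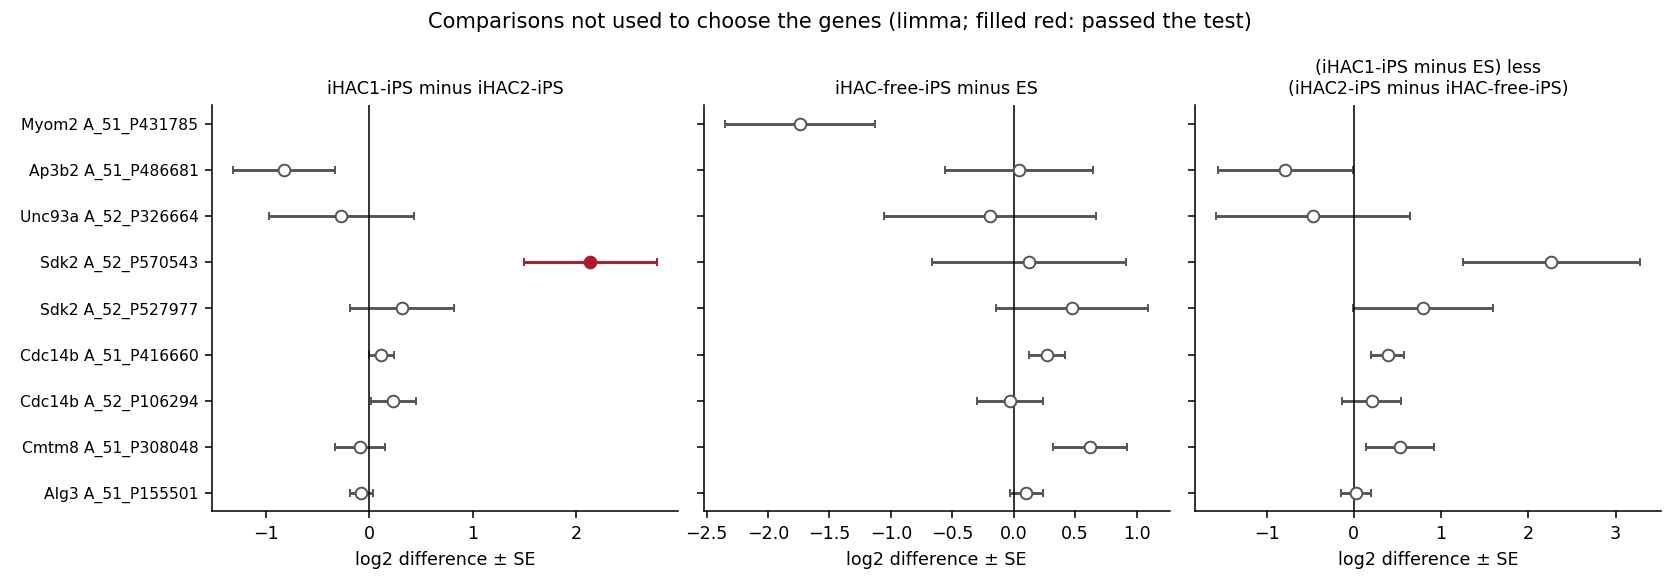
Limma log2 differences with standard errors (x axis) for the member probes (y axis) in 3 comparisons other than that which chose the genes. The Sdk2 probe A_52_P570543 is the only one that passed, at 2.14 between iHAC1-iPS and iHAC2-iPS, and Myom2 is shown only between iHAC-free-iPS and ES.

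Genes of related function were read from lists, 1 probe per gene (the brightest) and the members left out. Many are paralogues or genes of the same family and need not work with the member. Over all probes tested the median difference of carriers from the other samples was 0.05, with 514 (1.64%) past the limma threshold, 209 (0.665%) higher and 305 (0.971%) lower. Without MEF the number was 1236 and without 2-N 1138. The limma fit of this contrast had 2 groups of 8 arrays, so its spread pools unlike groups on each side. It takes each iHAC2-iPS clone and its own iHAC-free-iPS line as independent. It reads the split that chose the members, for lists chosen with earlier results known, so its p-values here are a description. Of the M-band and thick filament list, 17 of 19 genes passed the filter, with a median of -0.43; 13 had a lower value and 4 a higher value in carriers. Of these 17, 3 passed the test, all lower (0.971% of all probes), and 2 had no overlap, both lower (0.277% of all probes). Myh6 and Myh7, the cardiac myosin heavy chains, were lower by a difference of -3.54 (carriers -7.70 to -3.01, others -2.65 to 0.74) and -3.17 (carriers -4.32 to -2.28, others -1.90 to 3.64), and Trim63, a muscle ubiquitin ligase, by -3.31 with overlapping groups (limma adjusted p = 0.0155, 0.0145 and 0.0493). Myh6 was well above background in all 4 iHAC2-iPS clones and in none of the 4 iHAC1-iPS clones, so its value of -3.54 rests in part on readings that set only a limit. Against iHAC1-iPS, Myh6 was at least 14.9-fold higher in the samples without an iHAC, while the clones with iHAC2 were at least 4.03-fold higher (measured means -6.81 in iHAC1-iPS and -3.51 in iHAC2-iPS, limma adjusted p = 1.5e-04). Trim63 was well above background in 1 of 4 iHAC1-iPS and 3 of 4 iHAC2-iPS clones and also differed between the vectors, by -3.97 ± 0.74 (SE, iHAC1-iPS minus iHAC2-iPS, limma adjusted p = 0.0019). Myh6 and Myh7 are close paralogues whose probes may share signal. Myom1 and Myom3, the other myomesins, had -0.20 and -0.81 with overlapping groups. The median of the list kept its sign in the settings tried, from -1.18 to -0.13, with -0.13 without MEF.

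Of the AP-3 and other adaptor list, 19 of 20 genes passed the filter and 0 passed the test in either direction in limma, with a median of 0.02 that changed sign with single arrays left out. Ap3b1, the widely expressed counterpart of Ap3b2, read 3.70 to 4.09 in carriers and 3.93 to 4.23 in the others. The delta subunit Ap3d1 had a difference of -0.19 and the mu subunit Ap3m1 of 0.16, both with overlapping groups. All 5 genes of the UNC93 list and all 13 of the Sidekick list passed the filter, and 0 of either passed the test, with medians of -0.15 and -0.0038 that turned sign without MEF (0.14 and 0.12) and with normexp background correction (0.04 and 0.07). Unc93b1 had -0.34 and Sdk1, the only other sidekick, -0.63, both with overlapping groups and the latter opposite in sign to the brighter Sdk2 probe. At an unadjusted limma p under 0.05, 0 adaptor genes, 0 genes of the UNC93 list and 3 of the Sidekick list would be counted, against 18.6% of all probes.

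Of the Cdc14 and mitotic exit list all 20 genes passed the filter, 18 with a higher value in carriers. Of these 20, 0 passed the limma test (4 at an unadjusted p under 0.05, against 18.6% of all probes) or had no overlap. The median was 0.22, but 0.05 without MEF, near the 0.05 over all probes tested, and 0.05 to 0.28 with 1 array left out. The count of 18 rests in part on MEF too, which read low for genes such as Ccnb1 (0.96, against 2.74 to 3.94 in carriers). Cdc14a, the paralogue, had 0.12. Of the CKLF-like MARVEL list 12 of 14 passed the filter, with a median of -0.08 that became 0.17 within the second scan session and 0.11 with all probes of a gene. Pllp, the myelin proteolipid plasmolipin, was the 1 gene that passed and had no overlap, higher by 3.39 (limma adjusted p = 0.0359). Over all probes 0.665% passed as higher in carriers and 0.672% had no overlap with carriers higher. Carriers read -3.25 to 1.87 and the others -8.00 to -3.44. The -8.00 was MEF, below that array's lowest detected signal of -6.00, so 3.39 rests in part on a reading that sets only a limit. Pllp also differed between the vectors, by 3.36 ± 0.44 (SE, iHAC1-iPS minus iHAC2-iPS, limma adjusted p = 3.0e-04). Cmtm6 and Cmtm7, of the same family, had 0.08 and 0.87 with overlapping groups. Of the N-glycan precursor list 29 of 31 passed the filter, 21 with a higher value in carriers and a median of 0.19. Of these 29, 0 passed the limma test, which asks for a 2-fold difference (9 at an unadjusted p under 0.05, against 18.6% of all probes). No overlap was found for 2, both higher in carriers, against 0.672% of all probes. These were Alg9, the mannosyltransferase that acts after Alg3, at 0.54 (carriers 1.34 to 1.68, others 0.73 to 1.07), and Rpn2, a subunit of the oligosaccharyltransferase, at 0.25 (carriers 6.07 to 6.33, others 5.83 to 6.03). Alg12, which follows Alg9, had 0.19 with overlapping groups. Between the vectors (iHAC1-iPS minus iHAC2-iPS, against 20.0% of all probes tested), 3 genes of the M-band list were higher and 4 lower, 1 and 0 of the adaptor list, 1 and 0 of the UNC93 list, 4 and 1 of the Sidekick list, 1 and 1 of the Cdc14 list, 3 and 3 of the MARVEL list, and 2 and 1 of the N-glycan list. Between iHAC-free-iPS and ES lines 1 gene of all lists passed, against 0.366% of all probes tested. It was Ap3s2, a small subunit of AP-3, at 1.39 (limma adjusted p = 0.0339). Group and scan session coincide in this comparison, and its calls over all probes fell from 115 to 6 when these groups alone were fitted.

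Genes whose pattern over the 16 arrays was most like that of a member were ranked by Pearson r among 21473 genes, as a description, since the split between carriers and others alone raises such values. Myom2 was most like Rapsn (r = 0.94), Cnih2 (0.94) and Nexmif (0.92), and Ap3b2 most like Il17b (0.96), Mmd2 (0.93) and Smpd3 (0.92). Unc93a was most like Nat8 (0.94), Them5 (0.93) and Klrb1f (0.93), and Sdk2 most like S100a16 (0.92), Dip2b (0.91) and Them4 (0.91). Cmtm8 was most like Pcsk4, Tubg1 and Wdr90 (0.96, 0.96 and 0.95). Cdc14b and Alg3 were among each other's closest genes (r = 0.95 over 16 arrays), with Slc37a4 and Podxl beside Cdc14b and Nudt8 and Gtpbp1 beside Alg3. Over the 8 carriers alone Cdc14b and Alg3 had r = 0.24, so their likeness lies mainly between the groups and not within carriers. With Spearman's rank correlation 2 of the 21 pairs stayed among the closest, and without MEF 9 did.

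Members lie on 7 different chromosomes, and the genes around them were read within 500 kb of the member's probe. There, 146 probes of other genes passed the filter, with a median difference of -0.0021, and 1 had no overlap and 1 passed the test, against 0.949% and 1.64% of all probes. The probe with no overlap was Btbd1, 332 kb from the Ap3b2 probe and opposite to it, at 0.57. The one past the test was BC048679, 33.9 kb from the Ap3b2 probe, at -2.87, with overlapping groups (carriers -7.80 to -6.38, others -8.07 to -2.73). Its carrier readings all lay below the lowest detected signal of every carrier array (-5.79 to -4.34), so -2.87 rests on readings that set only a limit. BC048679 was named after its values were seen.

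**Figure D4:**
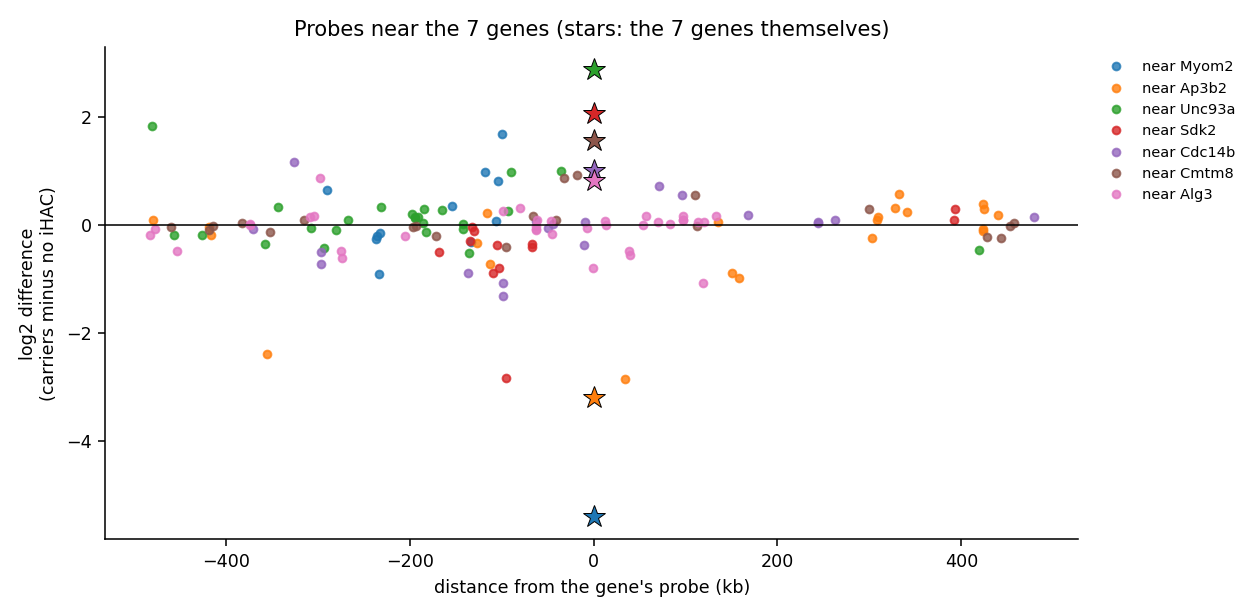
Log2 difference of carriers minus samples without an iHAC (y axis) for 146 probes within 500 kb of a member's probe, by distance from it in kb (x axis), with the 7 members as stars at 0. Neighbours have a median of -0.0021, and range from -2.87 to 1.83.

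The sequence before the annotated start was read for the members with a RefSeq promoter entry (GRCm38.p6, 7 promoters of 6 genes, 2 of them of Cdc14b), since the vectors carry transcription factors with known motifs. Letters searched on both strands in the 250 bases before and 50 after the start were ATGCAAAT (octamer, Oct4), CACGTG (E-box, Myc), ACAAAG (Sox), CACCC (Klf), GGGCGG (GC box) and CCAAT. None of the 7 held the first 3, which occur in 1.74%, 7.15% and 18.7% of all 32851 promoters. CACCC was in 5 of 7 (57.5% of all), GGGCGG in 4 of 7 (35.7%) and CCAAT in 3 of 7 (37.4%). The 250 bases before the start are shown for Ap3b2, lower in carriers, and for Unc93a, Cdc14b and Alg3, higher in carriers, with matches in capitals; in Ap3b2 a CACCC match on the reverse strand overlaps a GC box.
Ap3b2 promoter: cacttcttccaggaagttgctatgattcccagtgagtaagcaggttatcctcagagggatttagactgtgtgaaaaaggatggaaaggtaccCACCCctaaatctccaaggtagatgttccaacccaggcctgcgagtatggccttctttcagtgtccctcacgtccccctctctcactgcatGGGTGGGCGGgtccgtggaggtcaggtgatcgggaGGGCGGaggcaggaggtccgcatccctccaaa
Unc93a promoter: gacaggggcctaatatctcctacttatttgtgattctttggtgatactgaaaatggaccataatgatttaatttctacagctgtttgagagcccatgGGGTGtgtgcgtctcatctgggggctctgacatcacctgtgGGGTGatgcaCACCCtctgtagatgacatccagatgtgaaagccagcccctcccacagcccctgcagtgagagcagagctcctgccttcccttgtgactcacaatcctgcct
Cdc14b promoter: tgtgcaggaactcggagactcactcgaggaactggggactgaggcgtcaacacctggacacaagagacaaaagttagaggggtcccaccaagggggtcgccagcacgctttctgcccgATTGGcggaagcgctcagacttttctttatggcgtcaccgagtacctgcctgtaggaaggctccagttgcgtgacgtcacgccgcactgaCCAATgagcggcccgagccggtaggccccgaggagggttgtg
Alg3 promoter: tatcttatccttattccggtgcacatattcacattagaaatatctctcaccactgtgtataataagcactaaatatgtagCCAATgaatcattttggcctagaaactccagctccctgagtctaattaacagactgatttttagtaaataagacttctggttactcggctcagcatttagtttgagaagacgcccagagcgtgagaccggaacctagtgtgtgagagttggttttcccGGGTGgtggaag
They lie on the minus strand at chr7:81493926-81494175, chr17:13131792-13132041, chr13:64274989-64275238 and chr16:20610762-20611011. CCAAT was in Alg3, Sdk2 and the Cdc14b promoter shown, near its share over all promoters. The other Cdc14b promoter has none in the 250 bases before its start. Unc93a holds 3 CACCC matches and no GC box, and its GC content was 50.8%, against 55.2% for Ap3b2 and a median of 52.4% over all promoters. The matches are letters in a window and not sites of binding.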

How the data were processed

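RNA of 16 cell samples was measured on single-colour Agilent mouse arrays, and per the file headers the spot intensities were extracted, background-subtracted and flagged with Feature Extraction (10.7.1.1 in the first scan session, 10.7.3.1 in the second; build mm9). A deposited table of log2 values made by the authors, which tracked the scanner values with slopes near 1 and column medians from -0.33 to 0.28, served as an alternative; its centring is not stated. Processed intensities were taken to log2 and each array's 75th percentile was subtracted; outlier spots were dropped and spots of a probe averaged. Tests ran on the 31423 of 41174 probes flagged well above background on 1 or more arrays. Of all probes, 26690 were named through RefSeq accessions. Tests used limma 3.58.1 (R 4.3.3) with Benjamini-Hochberg adjustment, and a probe passed at an adjusted p under 0.05 and at least 2-fold. The fit had 6 groups, except for carriers against the rest, which had a separate fit with 2 groups of 8 arrays. Arrays give no counts, and their number limits precision. Code was tested on simulated data. Members and lists were chosen with earlier results of these data known. Named were all member probes, the probes of Pou5f1, Sox2, Klf4, Myc, Trp53 and Hprt, for each member the 3 genes of highest Pearson r, up to 3 genes per list, and neighbours within 500 kb whose groups did not overlap; Pllp, Trim63 and further list genes were named after their values were seen. The iHAC-free-iPS lines come from the iHAC2-iPS clones, per the study's methods, so these samples are paired by line; their deviations from the group means correlated at -0.07, -0.22, 0.03 and 0.08. P-values measure the spread between these clones and lines, which may be technical in part. For carriers against the rest that spread also holds the differences between the groups pooled on each side. Alternatives were normexp background correction, quantile normalization, the deposited table, other filters, slide and line blocks, and each array left out.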

Additional observations from a re-analysis of the deposited data

Results flagged for a closer look

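Among 27 checks (9 member probes in 3 groups of 4 arrays) 3 arrays lay far from the rest of their group, where chance alone gives about 1 in 20, or 1.35 of 27. The iHAC2-iPS clone 2-N read -2.32 for Unc93a, with the nearest other clone at -0.32. The iHAC2-iPS clone 2-C6 read -1.93 for the brighter Sdk2 probe, with the nearest other clone at -2.97. The iHAC-free-iPS line F-N7 read -0.91 for Alg3, with the nearest other line at -1.08.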

How the results depend on the processing

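With no overlap, the direction of the 8 member probes cannot turn within slides, sessions or pairs or with an array left out. It also held with normexp, quantile normalization and the deposited table. These settings process the same arrays that chose the members, so nothing is read from that. With normexp background correction Myom2 had -2.31, Ap3b2 -2.36 and the dimmer Cdc14b probe 0.41, and 7 member probes had no overlap. The dim Sdk2 probe A_52_P527977 turned from -0.96 to 0.29 within slide 2. Between the vectors, 6274 probes passed, but 2611 with normexp background correction, 3224 with the strict filter and 5019 to 7343 with 1 array left out. Between iHAC-free-iPS and ES, 115 passed, but 174 with normexp, 65 with no filter, 291 with the strict filter, 255 with values at the detection limit, 6 when these groups alone were fitted, 723 with slide as a random block and 16 to 698 with 1 array left out (698 without 2-C6, 16 without F-N7). In the comparison of the 2 carrier differences, 1710 passed, but 567 with slide as a fixed block and 334 to 2530 with 1 array left out (334 without B6ES). For carriers against the rest, 514 passed, but 251 with normexp, 300 with the strict filter, 102 for iHAC2-iPS clones against the iHAC-free-iPS lines alone and 299 to 1236 with 1 array left out. With line of origin as a replicate block, 132 and 1531 probes passed between iHAC-free-iPS and ES and between the carrier differences, and no call of a member changed. The UNC93 list median of -0.15 became 0.14 without MEF (-0.33 to 0.14 with 1 array left out) and -0.39 within the first scan session. Of the 21 genes most alike a member, 2 stayed with Spearman's correlation and 9 without MEF. The causes of these shifts were not tested. Signal near background limits Myom2 and BC048679 in carriers, Myh6 and Trim63 in iHAC1-iPS, Pllp in MEF, the second Sdk2 probe and the dimmer Cdc14b probe. With 4 clones or lines per group, the tests between groups are limited too.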
